A study of Mus musculus with 4 samples.

Results

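The cytotoxic granule genes described here are 10 named genes of mouse CD8+ T cells: the granzymes Gzma, Gzmb, Gzmk and Gzmm, the pore former Prf1, the granule and lysosome components Ctsw, Lamp1, Srgn and Nkg7, and the granzyme inhibitor Serpinb9. The rule takes them by name, as rows of the deposited count table, and applies no threshold to their values, though the list was drawn up with earlier results of these data known. All 10 were found among its 55401 genes, and all 10 passed the filter on low counts that left 11676 genes for testing. The cells were P14 CD8+ T cells, which carry a T cell receptor specific for the lymphocytic choriomeningitis virus (LCMV), taken from the spleens of mice infected with the Armstrong strain. In the empty vector group (n = 2 libraries) the cells were transduced with an empty pMIA vector, and in the Hic1 vector group (n = 2 libraries) with a pMIA vector for overexpression of Hic1. Hic1 is a transcriptional repressor with zinc fingers. The sample labels place the cells at day 32 of infection and the series text at day 7, so the stage is not settled here. Mouse strain, age and number, and whether libraries of a group came from separate mice, are not given in the labels, so p-values measure the spread between these libraries. Sorting took 5000 cells of each kind, of which 1000 were sorted again, and polyadenylated RNA was amplified by Smart-seq2.

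Cytotoxic T cells kill through secretory lysosomes. These granules hold granzymes, which are serine proteases, together with perforin, packed on the proteoglycan serglycin. When a target is recognised the granules travel along microtubules to the contact site and fuse with the membrane, perforin opens the way into the target, and granzymes cleave its proteins. The killer cell guards itself with a cytosolic serpin that inhibits granzyme B. In antiviral CD8+ T cells some of these genes are controlled by transcription factors of the Runx and T-box families.

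Total counts ran from 3941364 to 8839317 per library, and the Hic1 vector libraries were the deeper ones. The overexpressed gene, Hic1, had 3 and 5 counts with the empty vector and 314 and 161 with the Hic1 vector, a log2 fold change of 4.58 (SE 0.54, edgeR adjusted p = 0.00706). All 8 CD8 T cell markers were detected, and none passed the edgeR test. Their summed level was 6787 and 7283 CPM (counts scaled to the size of each library) with the empty vector and 7786 and 8786 CPM with the Hic1 vector, and Cd4 had 1 to 5 counts. In both groups, the library numbered 1 held Xist RNA (1885 and 3590 counts) and no Eif2s3y, and the library numbered 2 held Eif2s3y (396 and 951 counts) and 0 or 3 counts of Xist. Libraries of a group therefore also differ as female and male transcripts do, and differences within each number are given beside the pooled ones below.

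None of the 10 granule genes passed the edgeR quasi-likelihood test between the vectors at a Benjamini-Hochberg adjusted p below 0.05, a threshold that 213 of all 11676 genes (1.82%) passed. At an unadjusted p below 0.05 there were 4, namely Ctsw, Lamp1, Gzma and Srgn, beside 19.1% of all genes tested. DESeq2 called 2 (Ctsw and Lamp1), beside 412 of the 9919 genes it tested (4.15%), and limma voom called 1 (Ctsw), beside 176 of 11676 (1.51%). With the replicate number as a block, edgeR called 3 (Gzma, Ctsw and Lamp1), beside 794 of all 11676 genes, against 213 of 11676 without the block. The labels do not say that equal numbers pair the libraries. The numbers do follow the Xist and Eif2s3y difference given above, which the fit by group alone leaves in the spread within groups. For Ctsw and Srgn the Hic1 vector pair lay wholly above the empty vector pair, an order seen in 26.5% of all genes tested. It lay wholly below for Gzma and Lamp1, an order seen in 24.9% of all genes tested, and the groups overlapped for the other 6 members. The log2 fold changes of the 10 genes had a median of -0.06, with 3 above 0 and 7 below, beside a median of 0.01 over all genes tested. The log2 fold changes of the members ran from -1.62 for Lamp1 to 0.51 for Ctsw.

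**Figure D1:**
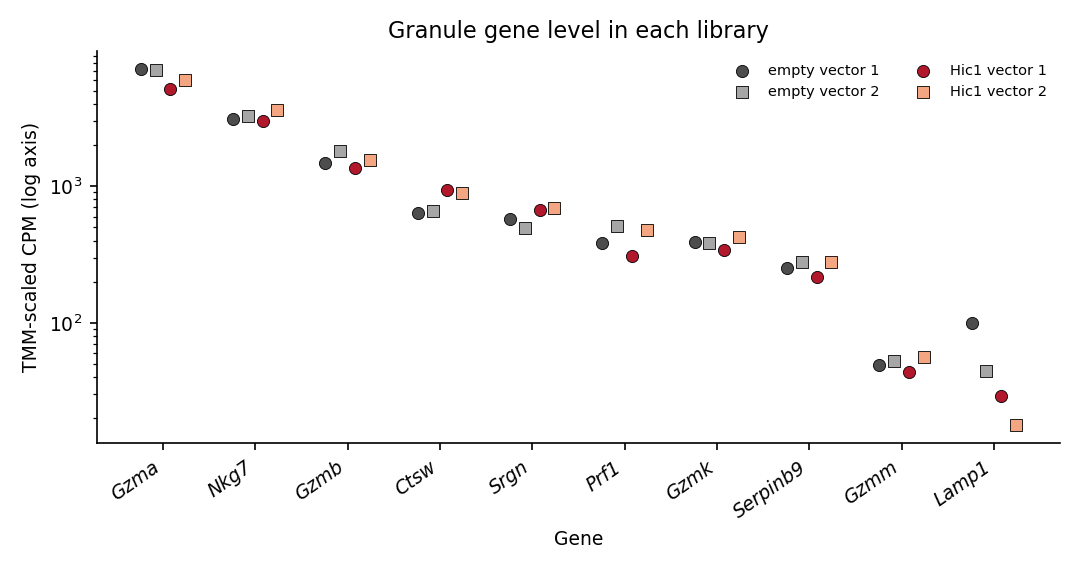
Level of each granule gene in TMM-scaled CPM (y axis, log scale) in the 4 libraries, with circles for replicate number 1, squares for number 2, grey for the empty vector and red for the Hic1 vector. Red points lie below grey for Gzma and Lamp1 and above grey for Ctsw and Srgn, and the red and grey ranges overlap for the other 6 genes.

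Gzma, a tryptase that cleaves after basic residues, was the most abundant member, and ranked 6 or 7 among all genes by count in every library. Its level was 7251 and 7061 CPM in empty vector libraries 1 and 2, and 5136 and 5976 CPM in Hic1 vector libraries 1 and 2. Both Hic1 vector libraries were lower, and the gap between the groups exceeded the gap inside either group. This was a log2 fold change of -0.37 (SE 0.11, 95% interval -0.61 to -0.12), or 1.29-fold lower, with an edgeR adjusted p of 0.108. Libraries with the same number differed by -0.50 (number 1) and -0.24 (number 2) on the log2 scale. After removal of a trend with transcript GC content, the log2 fold change of Gzma was -0.22 (edgeR adjusted p = 0.379, within a range of 0.0362 to 0.469 over 14 alternatives).

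Gzmb, which cleaves after aspartate and triggers apoptosis in targets, had 1467 and 1805 CPM with the empty vector and 1368 and 1552 CPM with the Hic1 vector. Hic1 vector library 2 lay between the empty vector libraries, so the groups overlapped. Its log2 fold change was -0.16 (SE 0.13, 95% interval -0.45 to 0.12, edgeR adjusted p = 0.536). The sign was the same within number 1 (-0.10) and within number 2 (-0.22).

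Gzmk, a tryptase typical of memory CD8+ T cells, had 393 and 386 CPM with the empty vector and 339 and 425 CPM with the Hic1 vector. The Hic1 vector libraries lay on either side of the empty vector pair, and the log2 fold change was -0.03 (SE 0.14, edgeR adjusted p = 0.94). Gzmm, which cleaves after methionine and related residues, had the fewest counts of the 4 granzymes among the members. It had 49.5 and 53.0 CPM with the empty vector and 43.6 and 56.7 CPM with the Hic1 vector, and these ranges overlapped. The log2 fold change of Gzmm was -0.03 (SE 0.21, 95% interval -0.48 to 0.42, edgeR adjusted p = 0.963).

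Gzma lies on chromosome 13 (GRCm38, 113093825 to 113100981, minus strand), 70627 bases from Gzmk, and Gzmb on chromosome 14 (56258838 to 56262260, minus strand). The 250 bases before the start sites of Gzma and Gzmb are shown because these were the most abundant granzymes and because Runx3 RNA, described further on, fell with the Hic1 vector. Sequences are RefSeq's for GRCm38.p6, written 5′ to 3′ on the gene's strand, at chr13:113100982-113101231 and chr14:56262335-56262584. Capitals mark the letters TGTGGT, the core word of Runx factors, or their reverse complement ACCACA. Gzma holds 1 such word and Gzmb holds 2, and 14% of all 32851 RefSeq windows of this length hold at least 1 on either strand.
Gzma promoter: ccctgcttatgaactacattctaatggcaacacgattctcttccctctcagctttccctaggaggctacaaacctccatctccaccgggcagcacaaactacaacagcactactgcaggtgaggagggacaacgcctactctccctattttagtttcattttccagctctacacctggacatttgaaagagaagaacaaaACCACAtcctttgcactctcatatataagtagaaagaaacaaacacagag
Gzmb promoter: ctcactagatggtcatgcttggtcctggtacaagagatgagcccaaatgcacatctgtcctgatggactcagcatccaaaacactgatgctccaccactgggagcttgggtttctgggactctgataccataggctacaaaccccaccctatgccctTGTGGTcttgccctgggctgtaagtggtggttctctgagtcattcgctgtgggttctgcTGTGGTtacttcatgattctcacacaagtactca
Of the 10 genes 9 had a RefSeq window, some with more than 1 start. The word stood in a window of Gzma, Gzmb, Gzmm, Prf1, Lamp1, Srgn and Nkg7. A T-box word, GGTGTGA on either strand, stood in a window of Gzmk, Gzmm and Nkg7, and in 3.33% of all windows. The letters GGGCANCC, a word bound by HIC1, stood in the window of Serpinb9 alone among the members and in 4.53% of all windows. These are letter matches and not binding sites.

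Prf1 encodes perforin, the protein that forms pores and lets granzymes into the target cell. It had 382 and 514 CPM with the empty vector and 307 and 479 CPM with the Hic1 vector. The groups overlapped, and in both the library numbered 2 was the higher one. Between the vectors the log2 fold change was -0.19 (SE 0.22, 95% interval -0.70 to 0.32, edgeR adjusted p = 0.703). It ran from -0.54 without Hic1 vector library 2 to 0.10 without Hic1 vector library 1, and its sign also turned without empty vector library 2 (0.03). Number 2 exceeded number 1 by 0.43 on the log2 scale with the empty vector and by 0.64 with the Hic1 vector, more than the difference between the vectors within number 1 (-0.31) or within number 2 (-0.10).

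Ctsw, which encodes cathepsin W, a papain-like cysteine protease of cytotoxic lymphocytes, came nearest to the threshold. It had 632 and 655 CPM with the empty vector and 940 and 896 CPM with the Hic1 vector. The Hic1 vector libraries were both higher, and the libraries of each group lay close together. Ctsw had a log2 fold change of 0.51 (SE 0.12, 95% interval 0.26 to 0.77), or 1.43-fold higher, with an edgeR adjusted p of 0.0517. The difference was 0.57 within number 1 and 0.45 within number 2. DESeq2 gave Ctsw an adjusted p of 0.0084, limma voom 0.0479 and edgeR with no filter 0.00222. Ctsw did not pass in edgeR under RLE scaling (adjusted p = 0.0573) or with library sizes alone (0.102). After removal of the GC trend its log2 fold change was 0.35 (edgeR adjusted p = 0.177). When 1 library was left out, the log2 fold change ran from 0.48 to 0.55. Ctsw (chromosome 19, 5465043 to 5468507, minus strand) shares 9 exonic bases with Fibp on the opposite strand, and Fibp had a log2 fold change of -0.03 (edgeR adjusted p = 0.966).

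Srgn encodes serglycin, the proteoglycan core on which granzymes and perforin are stored. It stood at 575 and 492 CPM with the empty vector and at 666 and 688 CPM with the Hic1 vector. Both Hic1 vector libraries were higher, by a smaller margin than for Ctsw. Its log2 fold change was 0.34 (SE 0.13, 95% interval 0.06 to 0.62), or 1.27-fold higher, with an edgeR adjusted p of 0.178. The difference was 0.21 within number 1 and 0.48 within number 2, and without empty vector library 2 the log2 fold change was 0.22.

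CD8 T cell markers and natural killer (NK) cell markers, whose cells both express Ctsw and Srgn, had higher sums with the Hic1 vector too. All 8 CD8 T cell markers had a log2 fold change above 0, with a median of 0.28, and 6 of 8 lay wholly above. The summed level of the 7 NK markers was 132 and 130 CPM with the empty vector and 189 and 247 CPM with the Hic1 vector. Of the 5 tested NK markers none passed the edgeR test, and 2, Klrb1c and Klra4, lay wholly above, the order that 26.5% of all genes tested showed. Fcer1g was at -0.15 on the log2 scale. Ncr1, which defines NK cells, had 0 to 2 counts in each library. In bulk RNA, fewer cells of a type and less RNA per cell cannot be told apart, and the part of these markers in the Ctsw and Srgn values was not tested.

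Nkg7, a granule membrane protein needed for full degranulation, had 3081 and 3266 CPM with the empty vector and 3013 and 3638 CPM with the Hic1 vector. The Hic1 vector libraries again spanned the empty vector pair. With all 4 libraries the log2 fold change was 0.07 (SE 0.12, 95% interval -0.19 to 0.33, edgeR adjusted p = 0.81). The sign of this small value turned with library sizes alone as the scaling and after removal of the GC trend.

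Lamp1 encodes the lysosomal membrane protein CD107a, whose arrival at the cell surface is used to measure degranulation. It showed the largest difference of the 10 genes, from few counts: 410 and 178 with the empty vector, and 206 and 156 with the Hic1 vector, whose libraries were deeper. These are 99.5 and 44.5 CPM with the empty vector and 29.0 and 17.8 CPM with the Hic1 vector. Both Hic1 vector libraries were lower, but the spread inside the empty vector group was wide, and empty vector library 1 stood highest. Lamp1 had a log2 fold change of -1.62 (SE 0.40, 95% interval -2.53 to -0.70), or 3.06-fold lower, with an edgeR adjusted p of 0.0875. Only 0.9% of all genes tested had a lower log2 fold change. The difference was -1.77 within number 1 and -1.31 within number 2.

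The Lamp1 value and call depended on single libraries. Without empty vector library 1 it was -0.92 (edgeR adjusted p = 0.382), and without empty vector library 2 it was -2.09 (edgeR adjusted p = 0.00633, which passes). Without Hic1 vector library 1 it was -1.99 (edgeR adjusted p = 0.0975) and without Hic1 vector library 2 it was -1.30 (0.354). DESeq2 gave an adjusted p of 0.00134, within a range of 2.84e-09 to 0.382 over 14 alternatives. The library numbered 2 was the lower one in both groups, with a log2 difference from number 1 of -1.16 with the empty vector and -0.70 with the Hic1 vector. Lamp1 (chromosome 8, 13159161 to 13175338, plus strand) shares 249 exonic bases with Grtp1 on the opposite strand, and Grtp1 had 1 to 5 counts per library.

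Monocytes and macrophages are cells rich in Lamp1. The summed level of the 8 markers was 37.1 and 47.0 CPM with the empty vector and 16.3 and 25.1 CPM with the Hic1 vector. Neither of the tested markers passed the edgeR test (Itgam adjusted p = 0.1, Csf1r 0.812), Csf1r overlapped between the groups, and most of the sum came from Itgam, which activated CD8+ T cells also express. Lyz2 had 0 counts in 3 libraries and 13 in Hic1 vector library 2, and Cd14 had 0 to 2 counts. The part of these markers in the Lamp1 value was not tested.

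The window before the Lamp1 start (chr8:13158911-13159160, RefSeq, GRCm38.p6, plus strand) is shown because Lamp1 differed most and because its letters are unusual. Capitals mark 4 copies of CACGTG, the palindromic E-box word bound by lysosomal regulators such as TFEB, and 1 copy of ACCACA that directly follows an E-box. Across all windows of this length 6.02% held CACGTG and 7 windows (0.021%) held at least 4 copies. Among the other members CACGTG stood in 1 window of Gzmm.
Lamp1 promoter: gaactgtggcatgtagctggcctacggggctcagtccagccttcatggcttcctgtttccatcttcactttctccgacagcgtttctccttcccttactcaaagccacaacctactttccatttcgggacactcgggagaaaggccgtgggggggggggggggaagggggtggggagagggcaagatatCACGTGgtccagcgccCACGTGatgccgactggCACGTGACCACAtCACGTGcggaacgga
Tfeb RNA had 22 and 32 counts with the empty vector and 55 and 96 counts with the Hic1 vector, with a log2 fold change of 0.47 (SE 0.40, edgeR adjusted p = 0.564).

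Serpinb9 encodes the inhibitor that protects cytotoxic cells from their own granzyme B. It had 254 and 277 CPM with the empty vector and 217 and 279 CPM with the Hic1 vector. The groups overlapped and the log2 fold change was -0.10 (SE 0.15, 95% interval -0.44 to 0.24, edgeR adjusted p = 0.78). The ratio of Gzmb to Serpinb9 RNA, each per kilobase of transcript, was 14.0 and 15.8 with the empty vector and 15.3 and 13.5 with the Hic1 vector. The protease and its inhibitor thus kept ratios whose ranges overlapped between the vectors.

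**Figure D2:**
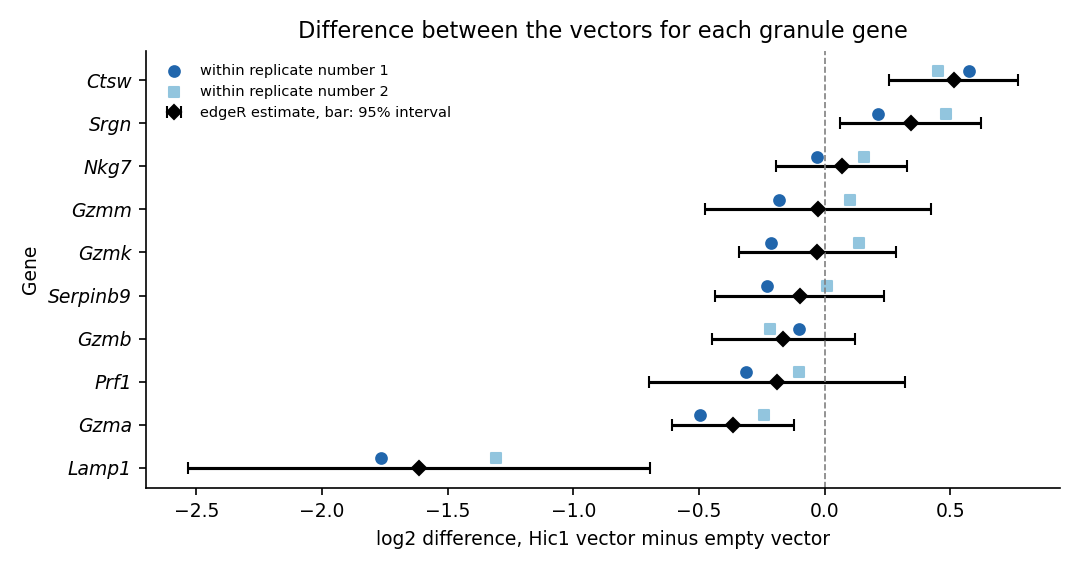
Log2 difference between Hic1 vector and empty vector (x axis) for each granule gene (y axis): black diamonds give the edgeR estimate with its 95% interval, and blue circles and light squares the differences within replicate numbers 1 and 2. The intervals of Lamp1, Gzma, Srgn and Ctsw leave out 0, and both blue points lie on the same side of 0 for Lamp1, Gzma, Prf1, Gzmb, Srgn and Ctsw.

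Compared per kilobase of transcript, the order of mean levels with the empty vector was Gzma (7185 CPM per kilobase), Nkg7 (3602), Gzmb (1139), Ctsw (518), Srgn (309), Gzmk (299), Prf1 (181), Serpinb9 (76.5), Gzmm (39.8) and Lamp1 (32.3). With the empty vector the libraries of Srgn and Gzmk overlapped, as did those of Gzmm and Lamp1, and all other neighbours in this order were separate. With the Hic1 vector the means stood in the same order. Srgn (392 CPM per kilobase) was then above Gzmk (293) in both libraries, and Gzmm (39.0) was above Lamp1 (10.5) in both libraries. The members spanned more than 2 orders of magnitude, so 1 gene weighs heavily in any sum.

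Together the 10 genes took 1.45% and 1.48% of all gene counts with the empty vector, against 1.14% and 1.39% with the Hic1 vector. Both Hic1 vector libraries were lower, and library 1 was the lowest. That library also had the highest share of ribosomal RNA and mitochondrial counts, 16.6% against 9.78% to 11.8% in the other 3. With those counts taken out of the total, the granule share was 1.61% and 1.68% with the empty vector and 1.37% and 1.56% with the Hic1 vector, and the order of the groups did not change. Gzma alone took 0.74% and 0.72% of all gene counts with the empty vector and 0.49% and 0.59% with the Hic1 vector. Nkg7, the next largest, took 0.32% and 0.33% against 0.29% and 0.36%, which overlapped. The lower sum therefore followed Gzma and was not shared by the list as a whole.

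Within the granule counts, Gzma made up 51.1% and 48.5% with the empty vector and 42.6% and 42.7% with the Hic1 vector. Nkg7 made up 21.7% and 22.4% against 24.99% and 25.97%. The shares of Gzma were thus lower and those of Nkg7 higher with the Hic1 vector, without overlap, while those of Gzmb (10.4% and 12.4% against 11.4% and 11.1%) overlapped. Shares of the same total are not independent, and a lower share of Gzma raises the others. In CPM, Nkg7 overlapped between the groups (3081 and 3266 against 3013 and 3638). The per-kilobase ratio of Gzma to Gzmk was 24.2 and 23.9 with the empty vector and 19.9 and 18.4 with the Hic1 vector. The ratio of Gzma to Gzmb was 7.13 and 5.64 against 5.41 and 5.55, lower in both Hic1 vector libraries by a margin smaller than the gap between the empty vector libraries. The ratio of Gzmb to Prf1 was 6.62 and 6.05 against 7.67 and 5.58, and overlapped.

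**Figure D3:**
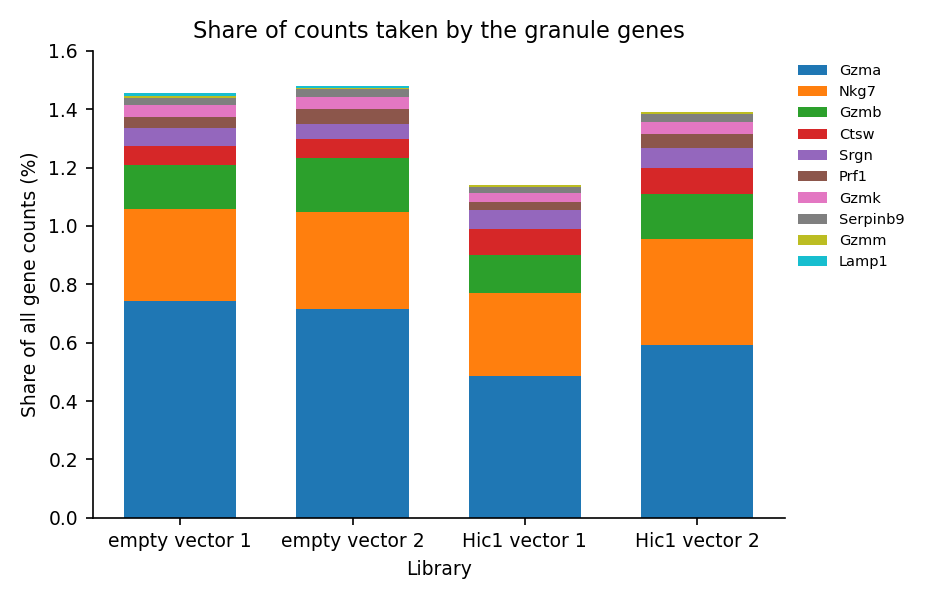
Share of all gene counts (y axis, percent) taken by the granule genes in each library (x axis), stacked by gene. The totals are 1.45% and 1.48% for the empty vector and 1.14% and 1.39% for the Hic1 vector, and the Gzma band differs most between the groups.

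Replicate number separated several members as far as the vectors did. In both groups, library 2 exceeded library 1 for Gzmb, Gzmm, Prf1, Nkg7 and Serpinb9, and fell short of it for Lamp1. These 6 of 10 genes (60%) with the same sign in both groups stand beside 57.3% of all genes tested. Among these 6 genes, the widest log2 differences between numbers were 0.64 for Prf1 with the Hic1 vector and -1.16 for Lamp1 with the empty vector.

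No gene within 100 kb of a member passed the edgeR test. The nearest to it was Cdc34, 622 bases from Gzmm (chromosome 10, 79689020 to 79695261), with a log2 fold change of -0.84 (SE 0.22, edgeR adjusted p = 0.0738). Of the granzyme genes that neighbour Gzmb on chromosome 14, Gzmc was detected at 10 and 5 counts with the empty vector and 49 and 30 with the Hic1 vector. Its log2 fold change was 1.33 (SE 0.58, edgeR adjusted p = 0.24). Gzmd, Gzmf, Gzmg, Gzmn, Ctsg and Mcpt8 had 0 counts in all 4 libraries, and Gzme had 1 count in all. Cma1, a chymase gene of the same cluster, had 30 and 24 counts against 2 and 14 (log2 fold change -2.42, SE 0.63, edgeR adjusted p = 0.0734). Granzymes and serpins are families of similar genes, and how reads that fit several members were counted is not stated in the sources used here.

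The enzymes that make granule proteins ready were tested as a list of 21 processing and lysosomal genes. Of the 18 tested none passed, 9 had a log2 fold change above 0 and 9 below, and the median was 0.01. Ctsz, a lysosomal carboxypeptidase, had 40.1 and 43.2 CPM against 71.4 and 69.3 (log2 fold change 0.75, SE 0.19, edgeR adjusted p = 0.0639). Ctsd, the main aspartic protease of lysosomes, had 1539 and 1761 CPM against 918 and 1339 (-0.55, SE 0.17, edgeR adjusted p = 0.123). Ctss, a cysteine protease, was at 0.50 (edgeR adjusted p = 0.15). The lysosomal cathepsins therefore did not lie on one side, with Ctsz and Ctss above 0 and Ctsd below. Gnptab, which is not a cathepsin and starts the mannose 6-phosphate tag of lysosomal enzymes, was at -0.50 (edgeR adjusted p = 0.159). Named for their role after their values were seen, Ctsc, which removes the propeptide of granzymes, had a log2 fold change of 0.05 (SE 0.19) and Cst7, the cystatin that inhibits it, of -0.07 (SE 0.20).

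Of 26 granule transport and exocytosis genes 23 were tested, and their median log2 fold change was -0.06. Of these 23, 1 rose and none fell, beside 1.82% of all genes tested that passed. The gene that rose was Sytl1, a synaptotagmin-like protein that binds Rab27 on granules. It had 29.6 and 26.5 CPM with the empty vector and 69.1 and 48.2 CPM with the Hic1 vector, a log2 fold change of 1.05 (SE 0.23, edgeR adjusted p = 0.0475). The call of Sytl1 was lost without empty vector library 1 (edgeR adjusted p = 0.204), without empty vector library 2 (0.112) and without Hic1 vector library 1 (0.149), under RLE scaling (0.0525), with limma voom (0.069) and after removal of the GC trend (0.13), and was kept in 8 of 14 alternatives, over which the adjusted p ran from 0.000169 to 0.204. Its log2 fold change stayed between 0.78 and 1.29 over them.

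Rab27a, the GTPase that Sytl1 binds, had 162 and 169 CPM against 115 and 130, a log2 fold change of -0.44 (SE 0.15, edgeR adjusted p = 0.147). Kif5b, a kinesin motor that carries granules along microtubules, had 273 and 244 CPM against 187 and 167 (-0.54, SE 0.14, edgeR adjusted p = 0.0763). These members were lower in both Hic1 vector libraries while Stxbp2, the syntaxin partner whose loss causes familial haemophagocytic disease, was higher in both, with 129 and 139 CPM against 201 and 169. The log2 fold change of Stxbp2 was 0.46 (SE 0.16, edgeR adjusted p = 0.139). Ap3s1, a subunit of the adaptor that sorts lysosomal proteins, was at -0.85 (SE 0.28, edgeR adjusted p = 0.134).

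All 6 tested serpins of leukocyte proteases other than Serpinb9 had a log2 fold change above 0, beside 5946 of all 11676 genes tested. None of the 6 passed, and their median was 0.38. Serpina3g had 12.9 and 24.5 CPM against 28.3 and 44.3 (log2 fold change 0.95, SE 0.33, edgeR adjusted p = 0.159). It was the only one of the 6 whose groups did not overlap. Its Hic1 vector pair lay wholly above, an order seen in 26.5% of all genes tested. Serpinb6a was at 0.47 (SE 0.25, edgeR adjusted p = 0.341), Serpinb1a at 0.78 (SE 0.46, 0.403) and Serpinb6b, which lies 24183 bases from Serpinb9, at 0.15 (SE 0.15, 0.639).

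A list of other killing molecules also held cytokines and chemokines, and 9 of its genes were tested. Beside 1.82% of all genes tested that passed, 1 of these 9 rose and none fell. It was Ltb, a membrane-anchored cytokine of the tumour necrosis factor family, at 122 and 149 CPM with the empty vector and 355 and 287 CPM with the Hic1 vector (log2 fold change 1.24, SE 0.16, edgeR adjusted p = 0.00855, and 0.0666 without empty vector library 1, the highest over 14 alternatives, the lowest being 3.82e-13). Ccl5, a chemokine kept in T cell secretory vesicles, had 9738 and 10682 CPM against 11472 and 15173. Both Hic1 vector libraries were higher in Ccl5, with a log2 fold change of 0.38 (SE 0.13, edgeR adjusted p = 0.159). Fasl, the death ligand, was at 0.27 (SE 0.20, edgeR adjusted p = 0.524) and Tnfsf10, which encodes TRAIL, at 0.30 (SE 0.25, 0.562). Ifng, the interferon of cytotoxic cells, was at -0.28 (SE 0.37, 0.738).

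A list of 18 transcription factors of the cytotoxic programme also held factors of memory cells such as Tcf7, and all 18 were tested. Tcf7 rose, Tbx21 and Runx3 fell and 15 did not pass, beside 1.82% of all genes tested that passed. Runx3, a Runx factor that activates cytotoxic genes, had 264 and 209 CPM with the empty vector and 140 and 150 CPM with the Hic1 vector. Its log2 fold change was -0.71 (SE 0.16, edgeR adjusted p = 0.0475), and the call was lost without empty vector library 1 (0.358), without Hic1 vector library 1 (0.0932), without Hic1 vector library 2 (0.0835) and under RLE scaling (0.0505), with a range of 0.000652 to 0.358 over 14 alternatives. Tbx21, the T-box factor T-bet, had 510 and 659 CPM against 370 and 281. Its log2 fold change was -0.84 (SE 0.17, edgeR adjusted p = 0.043), and the call was lost without empty vector library 1 (0.0693), without empty vector library 2 (0.0959) and without Hic1 vector library 2 (0.102), with a range of 1.6e-05 to 0.102 over 14 alternatives. Tcf7, a factor of memory and stem-like T cells, was called in all 14 alternatives, at 25.5 and 20.0 CPM against 97.9 and 84.0 (1.98, SE 0.21, edgeR adjusted p = 0.00423).

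The factors next to them in p did not pass and lay on both sides of 0. Zeb2, a transcriptional repressor active in terminal effector cells, was at -0.65 (SE 0.17, edgeR adjusted p = 0.0694), and Irf4, which couples receptor strength to effector growth, at -0.80 (SE 0.26, 0.128). Bhlhe40 was at 0.51 (SE 0.13, 0.0658) and Batf, an AP-1 factor of effector T cells, at 0.72 (SE 0.19, 0.0738).

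Of the 7 members with a Runx word in a window, Gzma, Gzmb, Gzmm, Prf1 and Lamp1 had a log2 fold change below 0 and Srgn and Nkg7 above 0. Both members with a window and no Runx word, Gzmk (-0.03) and Serpinb9 (-0.10), were also below 0. Of the 3 with a T-box word, Gzmk and Gzmm were below 0 and Nkg7 above. Ctsw (0.51) had no window, and 5730 of all 11676 genes tested were below 0. The signs of Gzmk, Gzmm, Prf1, Nkg7 and Serpinb9 changed in some alternatives. A link between these words and the signs was not tested.

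**Figure D4:**
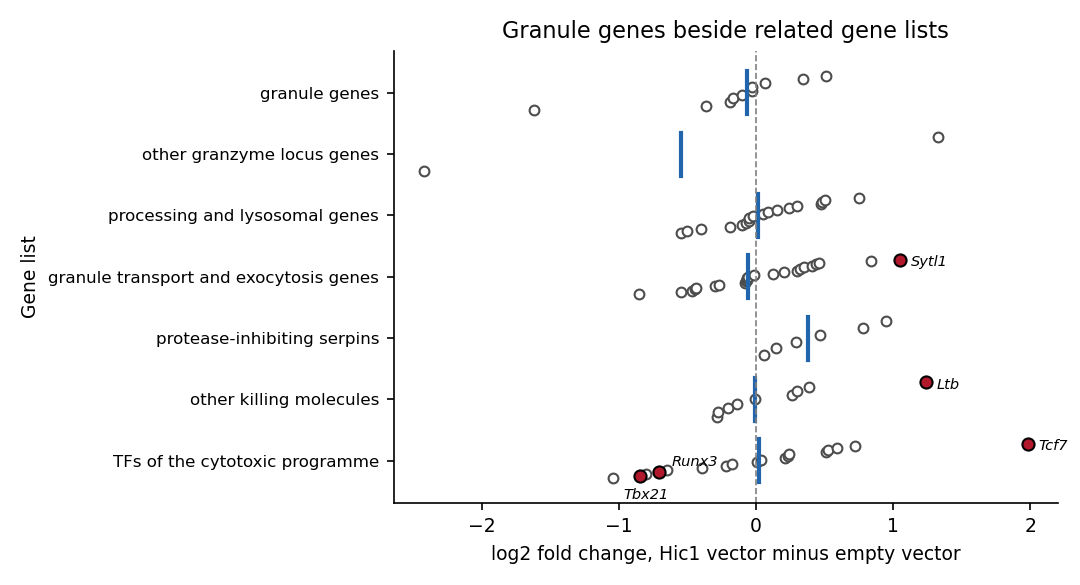
Log2 fold change between Hic1 vector and empty vector (x axis) of every tested gene in the granule list and 6 related lists (y axis, TFs being transcription factors). Open points did not pass the edgeR test, red points with names did, and blue bars mark list medians. No granule gene is red, and Sytl1, Ltb and Tcf7 stand to the right and Tbx21 and Runx3 to the left.

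Across all genes the calls were 84 higher and 129 lower with the Hic1 vector (39.4% higher). With library sizes alone as the scaling they were 70 and 251 (21.8% higher), and after removal of the GC trend 34 and 83 (29.1% higher). The larger side turned with no filter, at 461 higher and 358 lower (56.3% higher), and without empty vector library 1, at 6 and 2, and the sides were 77 and 78 without Hic1 vector library 2. Of the 3 tested B cell markers 1, Ighm, rose (log2 fold change 1.57, edgeR adjusted p = 0.00706), beside 1.82% of all genes tested that passed. The summed level of the 8 B cell markers was 81.1 and 88.7 CPM against 280 and 214, with Ms4a1 at 0 to 2 counts and Ighd at 0 or 1. Most of that sum was Ighm, at 61.4 and 84.4 CPM against 238 and 197. The other tested markers did not pass. Cd79b had 67 and 13 counts against 270 and 117 (log2 fold change 1.355, edgeR adjusted p = 0.417). Cd79a had 6 and 0 counts against 17 and 16 (1.19, 0.462). Mast cell and basophil markers summed to 2.00 to 5.21 CPM per library, and neutrophil and erythroid markers to less than 5 CPM. The part of the B cell markers in the granule gene values was not tested.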

How the data were processed

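RNA of 4 libraries, 2 per vector, was analysed. The authors deposited raw read counts per gene. The tools named, without roles, per the submitters' processing notes are featureCounts 1.5.3, STAR 2.5.2b, DESeq2 1.3.2 and Trimmomatic 0.38, on mm10. The annotation release is not given in the sources used here, and the library kit does not mark strand. A deposited normalized table was not used.

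Genes were kept by filterByExpr (minimum count 10, minimum total 15), scaled by TMM and tested by group alone with edgeR 4.0.16 (robust quasi-likelihood F test; log2 fold changes used a prior count of 2). The p-values of all 11676 genes were adjusted by Benjamini-Hochberg. The SE is the log2 fold change divided by the square root of F. CPM uses TMM-scaled library sizes, and lengths are those of the longest coding transcript in GENCODE M21. Reads from PCR are not independent molecules. Alternatives used limma 3.58.1, DESeq2 1.42.0 and a loess GC correction (span 0.3). The fits were tested on simulated counts.

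The members, gene lists and naming rule were chosen with earlier results of these data known. The rule names every member, Hic1, and in each list the called genes and otherwise up to 4 tested genes of lowest p. Tfeb, Ctsc, Cst7 and marker genes were named for their roles. Xist and Eif2s3y were chosen after their values were seen.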

Additional observations from a re-analysis of the deposited data

How the results depend on the processing

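With 2 libraries per group, the spread between libraries is poorly known. Counting error is largest for the members with few counts, Lamp1 (156 to 410) and Gzmm (204 to 498). Over 14 alternatives, the 10 log2 fold changes gave 140 values, of which 113 kept their sign and their side of the threshold, 11 kept their sign and newly passed, and 16 changed sign. Ctsw, Lamp1, Gzma, Srgn and Gzmb kept their sign in all 14. The causes of the changes were not tested.

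The number of genes called, 213 in the reported fit, was 321 with library sizes alone, 412 with DESeq2, 819 with no filter, 117 with the GC trend removed, and between 8 (without empty vector library 1) and 318 (without empty vector library 2) when 1 library was left out. Granule genes called, 0 in the reported fit, were 2 with DESeq2 and 2 with no filter (Ctsw and Lamp1), 1 with limma voom (Ctsw), and 0 to 1 when 1 library was left out (Lamp1 without empty vector library 2). The fit with no filter tested every gene with a count, more than the 11676 of the reported fit, so its 819 calls have a larger total. The median log2 fold change of the 10 genes ran from -0.24 (without Hic1 vector library 2) to 0.12 (without Hic1 vector library 1).

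Signs changed for Nkg7, Gzmk, Gzmm, Prf1 and Serpinb9. Nkg7 was at -0.0042 with library sizes alone and -0.0437 with the GC trend removed, and from -0.0697 to 0.20 when 1 library was left out. Gzmk was at 0.035 with no filter and 0.0815 with the GC trend removed, and from -0.20 to 0.13 when 1 library was left out. Gzmm was at 0.036 with no filter and from -0.22 to 0.15 when 1 library was left out. Prf1 ran from -0.54 to 0.10 and Serpinb9 from -0.29 to 0.0756 when 1 library was left out, and Serpinb9 was at 0.0746 with the GC trend removed.

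The labels do not say that equal replicate numbers pair the libraries, and the deviations of same-numbered libraries from their group means had a correlation of 0.24 across genes. With a replicate block, 794 of all 11676 genes and 3 granule genes were called: Gzma (adjusted p = 0.0362), Ctsw (0.0149) and Lamp1 (0.00193), by edgeR's quasi-likelihood test. With the replicate block and the GC trend removed together, 774 of all 11676 genes and 2 granule genes were called (Lamp1 and Srgn). In that fit Nkg7 was at -0.0496, Gzmk at 0.0718 and Serpinb9 at 0.0651.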
